A study of Mus musculus with 13 samples.

Results

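Calcium, potassium and sodium channel genes were examined in EPLMs, a population of early bone marrow progenitors that can still form lymphoid and myeloid cells, of WT mice and of BCS mice, which overexpress the B cell coactivator OBF1. The members were the genes with 1 platform symbol that begins with Cacn, with Kcn, or with Scn and a digit, apart from 1 gene that the selection left out. This gave 118 of the 18193 genes measured with 1 symbol, namely 24 calcium channel genes, 84 potassium channel genes and 10 sodium channel genes. The genes were selected on their symbols, and the probe set of each gene was chosen by its brightness over the 6 EPLM arrays, whatever the genotype, so levels are given as a description. The WT and BCS mice were 7-week-old littermates of a B6CF1 x C57BL/6 background, with 3 mice per genotype and 1 array per mouse. The BCS mice carry an HA-tagged human OBF1 cDNA under an immunoglobulin heavy chain promoter and the Eμ enhancer, a combination that is active in early B cells and can also be active in T cells. Independent transgenic lines exist, and the labels do not say which of them the arrays come from. EPLMs were sorted from bone marrow as B220+, c-kit+, CD93+ and NK1.1- cells, among other gates, so the RNA is that of a mixed progenitor gate.

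Voltage-gated calcium and sodium channels open when the membrane depolarizes, while most potassium channels set or restore the resting potential. Each is built from a pore-forming subunit and auxiliary subunits that alter its gating or its transport to the membrane. These genes are best known from nerve, heart and muscle. In lymphocytes, calcium enters mainly through the store-operated STIM and ORAI proteins, and the potassium channels encoded by Kcna3 and Kcnn4 are known to keep the membrane potential that favors this entry.

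In BCS EPLMs, Cacna1b, Cacna1h and Kcnk5 rose, Cacna1d and Scn3a fell, and the other 113 channel genes did not pass the test. The test was limma's, with a threshold of 0.05 on the p adjusted by Benjamini-Hochberg across all 45037 probe sets. In either direction, 5 of 118 channel genes (4.24%) passed, beside a background of 7.85% of all genes. Thus 3 of 118 genes (2.54%) were higher, beside a background of 3.15% of all genes, and 2 of 118 (1.69%) were lower, beside 4.70%. The share of called channel genes was therefore not above that of all genes. The median log2 change of the channel genes was 0.02 and that of all genes 0.01. Each of the 5 called genes had group medians at least 2-fold apart.

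Most channel genes gave little signal in EPLMs. The deposited values are GCRMA intensities with a median of 20 on every array, and 86 of the 118 genes lay below that median on all 6 arrays. A further 15 genes lay above it on every array and 17 on some. Of the 118 genes, 26 (22.0%) had a mean over the 6 arrays above the median, beside 58.6% of all genes. Among genes with such a mean, 5 of 26 channel genes passed the test, beside a background of 13.0% of all such genes. A gene can enter that set through the genotype in which it is high, so this count is a description only. For the 86 dim genes the log2 changes ran from -0.40 to 0.27 and none passed (lowest limma adjusted p = 0.201), but a change of a transcript that stays near background cannot be read on these arrays.

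**Figure D1:**
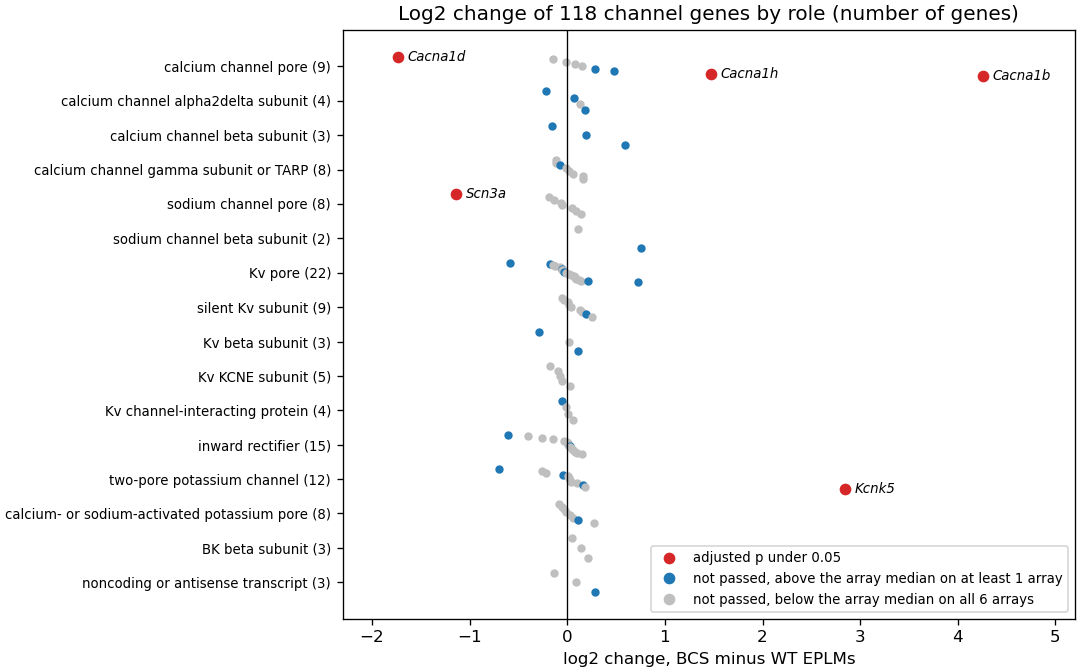
Log2 change of the 118 channel genes between BCS and WT EPLMs (x axis) by role of the encoded protein (y axis, number of genes in brackets). Red points have a limma adjusted p under 0.05, blue points did not pass and lie above the array median on at least 1 array, and gray points lie below it on all 6 arrays. All 5 called genes encode pore-forming subunits, as do most of the 118 genes. Their log2 changes ran from -1.74 to 4.26, while the other 113 genes lie between -0.70 and 0.75.

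The promoters of Cacna1b and Kcnk5, which rose, are shown because OBF1 acts through Oct proteins on the octamer ATGCAAAT. Cacna1h, which also rose, had no window, and Kcnab2, which did not pass the test, is shown for its octamer. The 250 bases before the annotated start were taken from RefSeq (build GRCm38.p6), 5′ to 3′ on the strand of the gene. Capitals mark a match to the octamer or to the E-box CAGCTG, a form of the site of E proteins, on either strand. The window of Cacna1b lies at chr2:24763153-24763402 on the minus strand, that of Kcnk5 at chr14:20181783-20182032 on the minus strand. Kcnab2, the only channel gene with an octamer in such a window, has 3 annotated starts, and the window with the match lies at chr4:152477550-152477799 on the minus strand.
Cacna1b: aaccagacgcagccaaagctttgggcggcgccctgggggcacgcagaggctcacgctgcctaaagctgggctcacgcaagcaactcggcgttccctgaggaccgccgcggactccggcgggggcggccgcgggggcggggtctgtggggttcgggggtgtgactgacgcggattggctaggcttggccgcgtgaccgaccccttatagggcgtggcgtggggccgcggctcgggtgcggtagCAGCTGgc
Kcnk5: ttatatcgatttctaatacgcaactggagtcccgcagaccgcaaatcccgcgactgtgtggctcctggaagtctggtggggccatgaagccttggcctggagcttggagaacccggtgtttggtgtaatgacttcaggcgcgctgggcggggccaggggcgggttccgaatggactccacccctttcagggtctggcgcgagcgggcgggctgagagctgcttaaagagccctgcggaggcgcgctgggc
Kcnab2: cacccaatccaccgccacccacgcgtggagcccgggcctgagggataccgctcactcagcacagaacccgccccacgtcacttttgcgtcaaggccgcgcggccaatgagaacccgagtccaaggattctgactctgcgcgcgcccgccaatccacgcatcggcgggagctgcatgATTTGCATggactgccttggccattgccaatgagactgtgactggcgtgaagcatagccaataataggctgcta
The Cacna1b window holds a CAGCTG that begins 8 bases before the start, and no octamer. The Kcnk5 window holds neither motif. In the Kcnab2 window the octamer, in its reverse complement ATTTGCAT, begins 74 bases before the start. Windows were at hand for 90 of the 118 channel genes, and of these 1 gene (1.11%) held an octamer in any of its windows, beside 1.81% of 27025 genes. The E-box was found in 27 of the 90, beside 3979 of the 27025 (14.7%). Among the called genes with a window, the E-box was also present before a start of Cacna1d, while Cacna1h and Scn3a were not searched. A match of letters does not show that a factor binds there, and no match says only that these letters are absent from the window.

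Among the pores of voltage-gated calcium channels, 2 of 9 genes rose, beside 3.15% of all genes, and 1 fell, beside 4.70%. Cacna1b encodes the pore of N-type channels, known for transmitter release at nerve terminals. Its intensity was 26.0, 24.2 and 32.1 in the 3 WT mice and 503, 631 and 493 in the 3 BCS mice. All BCS mice lay far above all WT mice, and the WT values lay just above the array median. The mean went from 27.5 ± 4.15 (SD, n = 3) to 542 ± 77.1 (SD, n = 3), 19.8-fold higher, which is 4.26 on the log2 scale (standard error, SE, of 0.19, limma adjusted p = 1.5e-05). Since the WT mice are near background, the size of the fold depends on the background.

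Cacna1h encodes a T-type channel, which opens at small depolarizations. Its intensity was 12.0, 11.0 and 13.1 in WT and 37.2, 30.5 and 38.3 in BCS mice. The genotypes did not overlap, and the WT values all lay below the array median. The log2 change was 1.47 (SE 0.14, limma adjusted p = 0.0005). With an offset of 16 before log2, which damps dim probe sets, it was 0.87 (limma adjusted p = 0.000685).

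Cacna1d encodes an L-type pore that opens at low voltage, known from sinoatrial and hair cells. Its intensity was 55.7, 73.6 and 139 in WT and 16.3, 25.1 and 34.3 in BCS mice. Every BCS mouse lay below every WT mouse, and the WT mice spread widely. The log2 change was -1.74 (SE 0.36, limma adjusted p = 0.025), and -0.92 with the mean of both probe sets. The call was lost without WT replicate 2 or 3 and without BCS replicate 1 or 2 (limma, adjusted p between 0.0561 and 0.0809).

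The other 6 calcium pores did not pass. Cacna1e, of R-type channels, had intensities of 42.9, 87.5 and 95.9 in WT and 85.2, 103 and 114 in BCS mice, which overlap (log2 change 0.48, 95% confidence interval -0.20 to 1.16). Cacna1a, of P/Q-type channels, stayed close to the array median, with means of 20.9 ± 1.77 in WT and 25.7 ± 1.28 in BCS mice (SD, n = 3 each), a difference that did not pass although the genotypes do not overlap. The L-type pore genes Cacna1c and Cacna1f, both described in lymphocytes, lay below the array median on all 6 arrays, so their expression cannot be read here.

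Several probe sets of a gene agreed in part. Of the 4 probe sets of Cacna1b, 3 rose, with log2 changes of 4.26, 3.77 (SE 0.20) and 3.05 (SE 0.41), and the fourth, below the array median on all arrays, did not pass (log2 change 0.11, limma adjusted p = 0.703). The probe set with a log2 change of 3.77 has the suffix x_at, by which Affymetrix marks probes that may match other transcripts. Both probe sets of Cacna1h rose, the dimmer by 0.70 (SE 0.11, limma adjusted p = 0.0062), although all its intensities lay below the array median. For Kcnk5, Cacna1d and Scn3a the dimmer of 2 probe sets lay below the array median on all arrays and did not pass. The called probe set of Cacna1d has the suffix s_at, a mark of probes shared by several transcripts. Over all 251 probe sets of the 118 genes, 7 rose and 2 fell, beside 5.49% of all probe sets called in either direction.

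**Figure D2:**
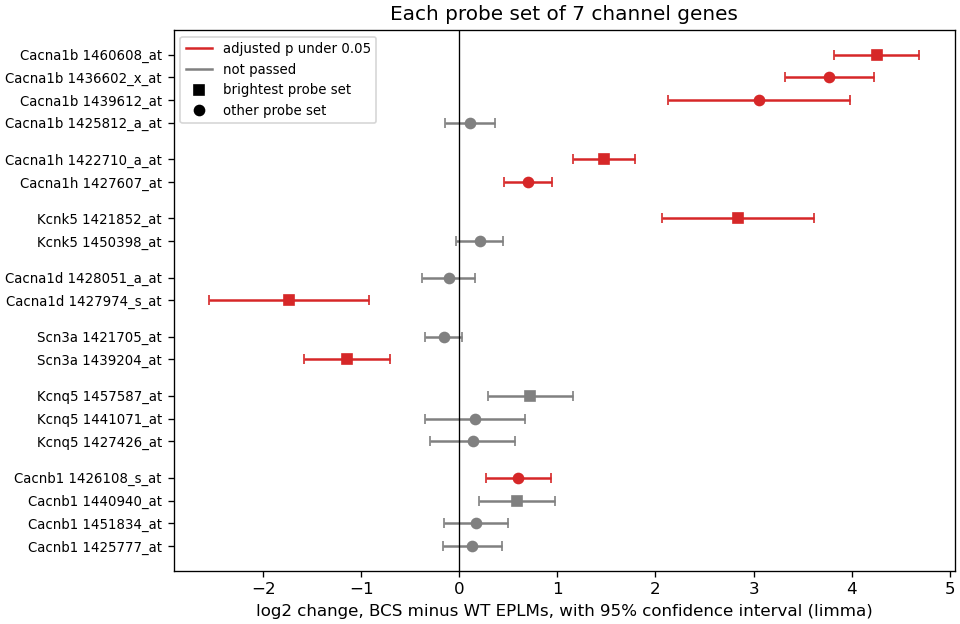
Log2 change between BCS and WT EPLMs (x axis) with its 95% confidence interval from limma, for each probe set (y axis) of 7 channel genes. Squares are the brightest probe sets, circles the others, and red marks an adjusted p under 0.05. The 3 probe sets of Cacna1b in red lie between 3.05 and 4.26, and both probe sets of Cacna1h are in red.

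None of the 15 auxiliary subunit genes of calcium channels passed. They encode the cytoplasmic beta subunits and the alpha2delta subunits, both of which bring the pore to the membrane, and the gamma subunits with the related AMPA receptor regulators. Cacnb1, a beta subunit gene, came closest, with intensities of 23.7, 31.5 and 24.7 in WT and 41.2, 44.1 and 35.9 in BCS mice. These do not overlap, yet the test was not passed (log2 change 0.59, SE 0.17, limma adjusted p = 0.0936). A dimmer Cacnb1 probe set had a log2 change of 0.60 (SE 0.15) at an adjusted p just under the threshold, and with the mean of its 4 probe sets the gene passed (log2 change 0.37, limma adjusted p = 0.0279). Cacnb2 and Cacnb4 had log2 changes of 0.19 (95% confidence interval -0.18 to 0.56) and -0.15 (95% confidence interval -0.45 to 0.14).

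Cacna2d1, an alpha2delta gene, had the largest SE of the 118 genes. Its intensity was 59.8, 123 and 13.9 in WT and 132, 27.0 and 34.1 in BCS mice. The genotypes overlap fully, and the log2 change of 0.07 has a 95% confidence interval from -1.69 to 1.84. Cacna2d4 had a log2 change of -0.22 (95% confidence interval -0.70 to 0.26). Of the 8 gamma subunit genes, 7 lay below the array median on all arrays.

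Of the potassium channel genes, Kcnk5 alone passed. It encodes TASK-2, an acid-sensitive background channel of the tandem pore domain (K2P) family, which is also known from lymphocytes. Its intensity was 56.5, 28.9 and 72.6 in WT and 481, 345 and 277 in BCS mice. The genotypes lay apart, with the lowest BCS value above the highest WT value. The mean went from 52.7 ± 22.1 to 368 ± 104 (SD, n = 3 each), 6.98-fold higher, with a log2 change of 2.84 (SE 0.34, limma adjusted p = 0.00172). With the mean of both probe sets the log2 change was 1.52 (limma adjusted p = 0.00321). Kcnk5 passed the methods' own rule, an unadjusted p under 0.01 with medians at least 2-fold apart. After adjustment, the methods' test did not call Kcnk5 (adjusted p = 0.112).

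The other 11 K2P genes did not pass, and 8 of the 12 lay below the array median on all arrays. Kcnk12, whose protein THIK-2 is a silent member of the family, had intensities of 28.2, 17.4 and 21.5 in WT and 11.4, 13.6 and 14.7 in BCS mice. These do not overlap but lie around the array median (log2 change -0.70, SE 0.18, limma adjusted p = 0.0593). Kcnk12 passed without WT replicate 2 (limma adjusted p = 0.0297), with robust variances (0.046), with arrayWeights (0.0485) and with the mean of probe sets (0.0489). Kcnk6, which encodes TWIK-2, had intensities of 455, 874 and 548 in WT and 597, 664 and 506 in BCS mice. They overlap, with a log2 change of -0.04 (95% confidence interval -0.58 to 0.50).

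**Figure D3:**
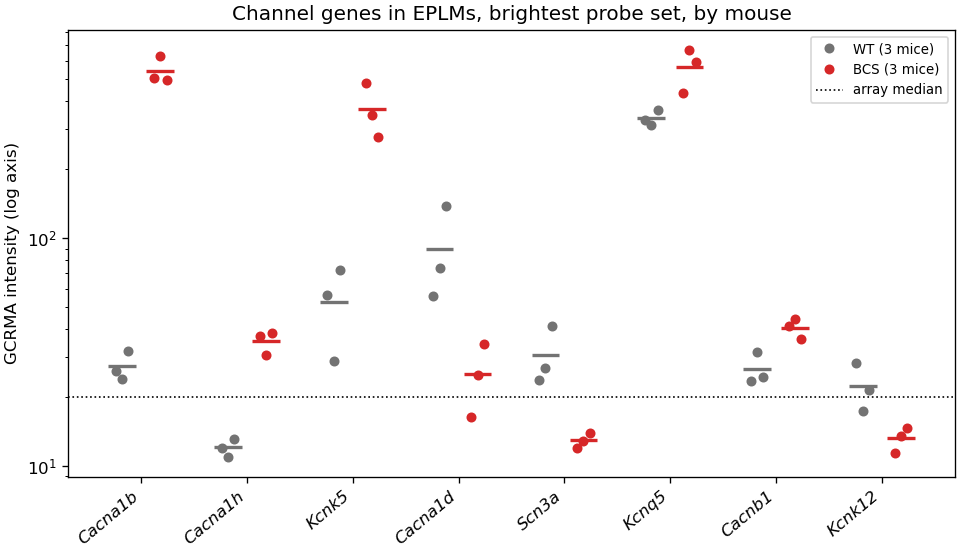
GCRMA intensity (log axis) of the brightest probe set of 8 channel genes in EPLMs. Each point is 1 mouse, gray for the 3 WT and red for the 3 BCS mice, with the mean of each group as a bar and the array median of 20 as a dotted line. Cacna1b, Cacna1h and Kcnk5 rose and Cacna1d and Scn3a fell, while Kcnq5, Cacnb1 and Kcnk12 did not pass although their genotypes do not overlap.

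The voltage-gated potassium (Kv) channels open when the membrane depolarizes and repolarize it. None of their 22 pore genes passed. Kcnq5, of the M-current family, had intensities of 330, 313 and 365 in WT and 432, 667 and 594 in BCS mice. The genotypes do not overlap, and the BCS mice spread more widely. The log2 change was 0.73 (SE 0.19, limma adjusted p = 0.0658), and it passed without BCS replicate 1 (limma adjusted p = 0.0241), with robust variances (0.0494) and among probe sets above the array median (0.0427). The other 2 probe sets of Kcnq5 changed by 0.14 and 0.16 and did not pass.

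Kcna3 encodes Kv1.3, a main potassium channel of T cells. Its intensity lay near the array median, at 19.0, 19.2 and 21.6 in WT and 26.0, 21.6 and 22.2 in BCS mice. The genotypes overlap, with a log2 change of 0.21 (95% confidence interval -0.09 to 0.51). Of the genes that modify Kv pores, Kcnab2, which encodes a cytoplasmic beta subunit, had intensities of 593, 658 and 746 in WT and 567, 529 and 535 in BCS mice. They do not overlap, but the test was not passed (log2 change -0.29, SE 0.15, limma adjusted p = 0.351). Kcng1, a silent Kv subunit gene, had a log2 change of 0.19 (95% confidence interval -0.17 to 0.55). Kcnq1 and the inward rectifier gene Kcnj2, both described in lymphocytes, lay below the array median on all 6 arrays. All 5 KCNE subunit genes and 3 of 4 genes of Kv channel-interacting proteins lay below the array median on all arrays.

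Kcnn4 encodes KCa3.1, the calcium-activated potassium channel of lymphocytes and red cells. Its intensity was 4090, 5234 and 5200 in WT and 4822, 4585 and 6323 in BCS mice, well above background in every mouse. The genotypes overlap, and the log2 change of 0.11 has a 95% confidence interval from -0.21 to 0.43, which leaves out a change by 2-fold. A dimmer probe set of Kcnn4 did not pass either, at a log2 change of 0.16 (SE 0.16). The other 7 genes of calcium- or sodium-activated potassium pores lay below the array median on all arrays.

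Of the 15 inward rectifier genes, 13 lay below the array median on all arrays. Kcnj11 encodes Kir6.2, the pore of ATP-sensitive channels. Its intensity was 483, 555 and 569 in WT and 584, 569 and 491 in BCS mice. The log2 change was 0.03 (95% confidence interval -0.31 to 0.37). Kcnj14 had a log2 change of -0.60 (95% confidence interval -1.25 to 0.05) near the array median. The symbols also took in Kcnq1ot1, a long noncoding RNA that lies antisense to Kcnq1 and encodes no channel, and it did not pass (log2 change 0.29, SE 0.26, limma adjusted p = 0.641).

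**Figure D4:**
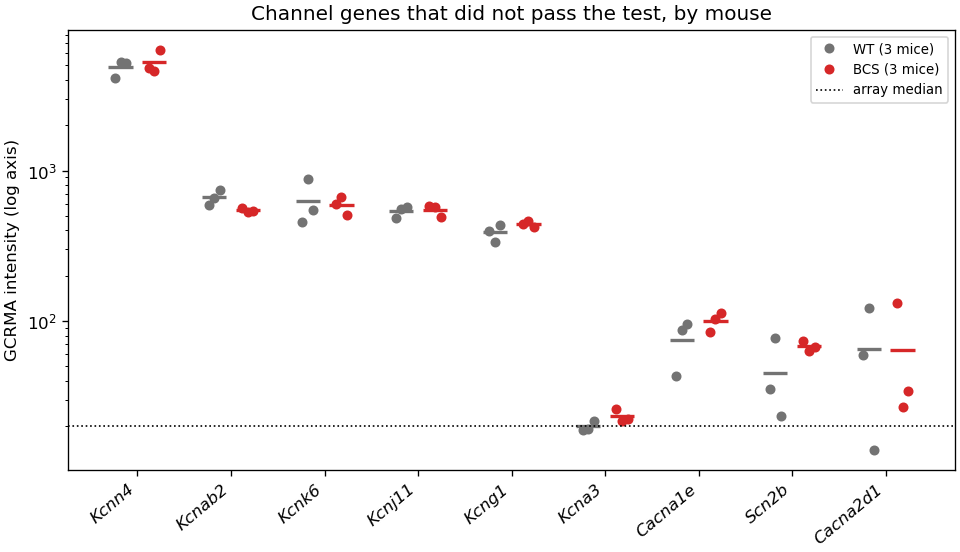
GCRMA intensity (log axis) of the brightest probe set of 9 channel genes that did not pass the test. Each point is 1 mouse, gray for the 3 WT and red for the 3 BCS mice, with the mean of each group as a bar and the array median of 20 as a dotted line. The genotypes overlap for each gene except Kcnab2, and the mice of both genotypes spread most for Cacna2d1.

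Among 8 sodium channel pores, Scn3a fell and the other 7 lay below the array median on all arrays. Scn3a encodes Nav1.3, known mainly from the developing nervous system. Its intensity was 23.8, 26.9 and 41.0 in WT and 12.0, 12.8 and 14.0 in BCS mice. The BCS values all lay under the array median and all WT values above it. The log2 change was -1.14 (SE 0.19, limma adjusted p = 0.0102). It was -0.67 with an offset of 16 and -0.65 with the mean of both probe sets, and passed in either case. Scn2b, a beta subunit gene, had intensities of 35.2, 77.3 and 23.5 in WT and 74.3, 63.0 and 67.8 in BCS mice. These overlap, and the log2 change of 0.75 (95% confidence interval -0.08 to 1.58) did not pass.

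Over all 118 genes, the genotypes did not overlap for 21, with the BCS mice higher for 10 (8.47%) and lower for 11 (9.32%), beside 14.5% and 14.2% of all genes. At an unadjusted p under 0.05 from limma 12 genes passed, beside 23.0% of all genes. With 3 mice against 3 the number of arrays limits the precision.

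Of 63 measured genes of calcium handling, the sodium pump and other channel families, 5 rose and 10 fell, 15 in all, beside 7.85% of all genes (3.15% higher and 4.70% lower). These lists are brighter than the channel genes. Of the 63 genes, 44 had a mean over the 6 arrays above the array median, and 13.0% of all genes with such a mean were called. In store-operated entry, Orai3 fell, from intensities of 390, 332 and 463 in WT to 163, 157 and 87.4 in BCS mice (log2 change -1.57, SE 0.26, limma adjusted p = 0.00937). Orai1, the main store-operated pore of lymphocytes, had a log2 change of 0.70 and the calcium sensor gene Stim1 one of 0.10, and neither passed. Among the release channels of the stores, Itpr3, an IP3 receptor gene, rose by 1.31 (SE 0.20), and Ryr1, a ryanodine receptor gene, fell (log2 change -1.93, SE 0.27). Of the pumps that refill the stores, Atp2a3 rose by 1.06 (SE 0.16), while Atp2a1 fell (log2 change -1.19, SE 0.22). In all, 2 of 21 genes of calcium entry, stores and pumps rose and 3 fell.

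Of 11 genes that read the calcium signal, the kinase gene Camk2d and the calcineurin subunit gene Ppp3cb rose, by 0.76 (SE 0.13) and 0.27 (SE 0.06), and Nfatc2, a transcription factor gene activated by calcineurin, fell (log2 change -1.39, SE 0.21). Of 5 sodium pump genes, Fxyd6, a regulatory subunit gene, rose by 1.33 (SE 0.21) and Atp1b1, a beta subunit gene, fell (log2 change -0.61, SE 0.09). Of 26 genes of other channel families, none rose and 5 fell, beside 3.15% and 4.70% of all genes, and 3 fell without WT replicate 3, BCS replicate 2 or BCS replicate 3. The ATP-gated channel gene P2rx7 went from intensities of 381, 560 and 612 in WT to 107, 36.0 and 50.3 in BCS mice (log2 change -3.11, SE 0.37, limma adjusted p = 0.00163). The log2 change of Clcn5, an endosomal chloride transporter gene, was -1.80 (SE 0.18), that of the proton channel gene Hvcn1 -1.36 (SE 0.24), that of P2rx4 -1.07 (SE 0.23) and that of the cation channel gene Trpv2 -0.83 (SE 0.15). With an offset of 16 these lists kept their counts of 5 higher and 10 lower, while the methods' t-test called none of the 63 after adjustment.

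Among the lists of cell type markers, most measured genes were called only for plasmacytoid dendritic cells and for the B lineage. Whether EPLMs or other cells in the gate express these markers was not tested. In bulk RNA, fewer cells of a type and less RNA per cell cannot be told apart. Over all genes, 3.15% were called higher and 4.70% lower, and these shares stand beside the count of each list here. Of the 70 measured genes of these lists and the sorting gate, 58 had a mean over the 6 arrays above the array median. Among all genes with such a mean, 13.0% were called. Plasmacytoid dendritic cell markers fell for 12 of 13 measured. Their summed intensity ran from 94664 to 107420 in WT and from 44452 to 58336 in BCS mice. Of 7 measured markers of the B lineage, 5 rose, with sums from 34192 to 60095 in WT and from 81790 to 88162 in BCS mice. The number called higher was 2 of 7 without WT replicate 1, 3 without WT replicate 3 or BCS replicate 1, 1 without BCS replicate 2 or BCS replicate 3, and 5 without WT replicate 2. Of 10 NK markers, Klrd1 alone fell and all 10 had a lower mean on the log2 scale (sums of intensity from 8992 to 14893 in WT and from 1500 to 5164 in BCS mice). Klrd1 made up a large part of the WT sums, with intensities of 6901, 8110 and 7943 in WT and 1087, 1306 and 2430 in BCS mice. For every other NK marker the genotypes overlap. Of 12 myeloid markers, Csf1r fell and 11 had lower means (22807 to 72413 in WT and 8099 to 48823 in BCS mice). Of 9 T cell markers Thy1 rose, Cd8a fell and 7 had lower means, with sums from 711 to 1691 in WT and from 1707 to 2126 in BCS mice. The direction of these sums came from Thy1, since those of the other 8 markers ran from 310 to 792 in WT and from 209 to 301 in BCS mice, and Thy1 was not called without WT replicate 3, BCS replicate 1 or BCS replicate 2. None of 8 erythroid and megakaryocyte markers passed, with sums from 268 to 3659 in WT and from 237 to 262 in BCS mice, the highest on WT replicate 2, where the platelet gene Pf4 had an intensity of 2805. None of 6 neuron markers passed, and 4 of them lay below the array median on all arrays (sums from 77.7 to 86.5 in WT and from 80.6 to 97.3 in BCS mice). GCRMA gives no value of 0, so no marker is at 0. The part of these markers in the changes of the channel genes was not tested.

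**Figure D5:**
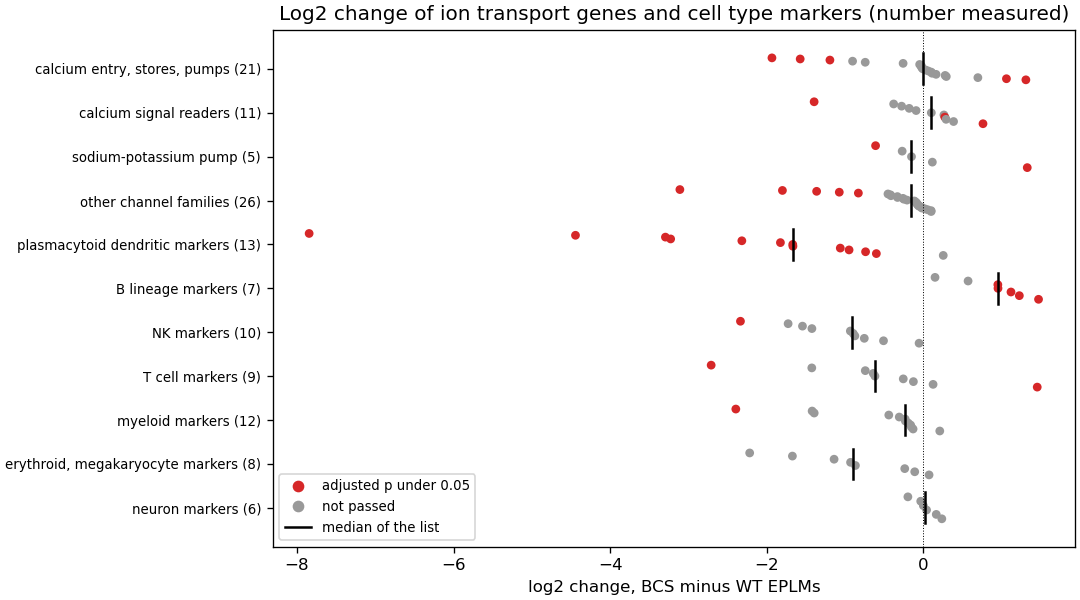
Log2 change between BCS and WT EPLMs (x axis) of genes of ion transport and of cell type markers, by list (y axis, number measured in brackets). Each point is 1 gene, red where limma's adjusted p was under 0.05, and black bars are list medians. Of the other channel families 5 genes fell and none rose, 12 of 13 markers of plasmacytoid dendritic cells fell, and 5 of 7 B lineage markers rose. Over all genes, 3.15% rose and 4.70% fell.

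Among the genes of the sorting gate, the intensity of Kit was 481 ± 26.5 in WT and 477 ± 20.4 in BCS mice (SD, n = 3 each) and Cd93, with a log2 change of 0.29, did not pass. Ptprc, which encodes B220, and the cytokine receptor gene Flt3 fell, by 0.40 and 1.22 on the log2 scale. Cacna1b, Cacna1h, Kcnk5 and Scn3a passed without WT replicate 2, and also without each of the other 5 arrays in turn.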

How the data were processed

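RNA of sorted EPLMs of 3 WT and 3 BCS mice was measured on Affymetrix mouse GeneChips, with an array for each mouse. The labels name a labeling protocol of 1 cycle and the methods a kit of 2 cycles. The deposited values are intensities that the authors normalized with GCRMA (version not given in the sources used here), on a linear scale. The 6 EPLM columns share 1 distribution, with a median of 20 and an upper quartile of 339, so a global shift cannot be seen. The 7 large preB arrays of the 13 were not used.

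The 64 control features were left out, and log2 of the intensity plus 1 was fitted for 45037 probe sets with limma 3.58.1 under R 4.3.3, using lmFit and a trended eBayes, for BCS minus WT, without covariates. The p was adjusted by Benjamini-Hochberg over all probe sets. The platform annotation gives 34945 probe sets 1 symbol, 932 several and 9160 none, and each gene was read by its brightest probe set. The fit was tested on simulated data. No genome build is stated for the arrays.

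The members and the 12 gene lists were chosen with earlier results of these data known. Genes named are all called channel genes, those with the largest changes above the array median, channel genes known in lymphocytes and up to 4 called members of each other list. Further genes, among them 1 more called member in each of 2 lists, were chosen after their values were seen, as was the sum of T cell markers without Thy1. Alternatives were the methods' t-test, other variance models, leaving out dim probe sets, arrayWeights, quantile normalization, an offset of 16, a block for the replicate number, other choices of probe set, other thresholds and leaving out each array.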

Additional observations from a re-analysis of the deposited data

How the results depend on the processing

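The rise of Cacna1b passed under each of the 16 alternatives run for it, with log2 changes from 2.80 (mean of its probe sets) to 4.37. The count of 5 channel genes at an adjusted p under 0.05 from limma lay between 4 and 7 under 17 of 19 alternatives. It was 2 with the methods' t-test after adjustment and 3 at an adjusted p under 0.01. The count of 15 calcium, pump and other channel genes became 0 with the methods' t-test after adjustment, 9 at an adjusted p under 0.01 and 9 with that t-test at an unadjusted p under 0.01 and medians 2-fold apart. The count of 23 cell type markers became 3, 15 and 12 under these same 3 settings. The median log2 change of the channel genes was 0.17 among the 26 that passed a filter on dim probe sets. A gene can pass that filter through the genotype in which it is high, so this median is a description only. Leaving out each array gave 4 to 6 channel genes, 11 to 17 other ion transport genes and 17 to 22 markers. Within the last, the B lineage markers called higher ran from 1 to 5 of 7 and the plasmacytoid dendritic cell markers called lower from 11 to 12 of 13, as counted after seeing the data. The Cacna1d call was also lost without the intensity trend (adjusted p = 0.0512 from limma). After adjustment, Kcnk5, Cacna1d and Scn3a did not pass with the methods' t-test. With that t-test at an unadjusted p under 0.01 and medians 2-fold apart, 4 channel genes passed, 3 higher and 1 lower. Kcnn4, not called, ranged from -0.033 to 0.199 on the log2 scale when each array was left out, and was negative without WT replicate 1 (-0.0076) and without BCS replicate 3 (-0.033). Deviations from the group mean correlated from -0.0002 to 0.0675 over probe sets for same-numbered mice. For mice with different numbers they correlated from -0.164 to 0.098. With 3 mice per genotype, these values cannot show whether the numbers pair the samples. With the replicate number as a block, 5 channel genes, 14 other ion transport genes and 26 markers passed, and the log2 change of Cacna1b was 4.26 (adjusted p = 0.000424 from limma). Probe sets near the array median limit what these arrays can show.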
